A study of Homo sapiens with 12 samples.

Results

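Induction of TFEB S211A in HL60 cells that carry its vector was read from 6 of the 12 RNA-seq libraries of the study, 3 with doxycycline against 3 with vehicle, over the 23128 genes that averaged 10 or more. HL60 is an established human acute myeloid leukaemia line whose cells resemble promyelocytes. One line had been transduced with pRRL-TFEBS211A-puro, which expresses TFEB S211A, with a serine changed to alanine, when doxycycline is added, and the other with the empty vector pRRL-EV-puro (EV). Doxycycline at 1 µg/ml for 48 h is listed for every sample, vehicle samples included, so the treatment of each was taken from its own treatment label. The series text describes the replicates as independent experiments. The sources used here do not say whether either line is a single clone. The drug was present in the induced cells alone, so within this line TFEB S211A and doxycycline cannot be told apart. The EV line, treated in the same way, is used here to test whether a response to the drug differed between the lines. Its libraries also entered the filter on mean values, the rescaling of libraries and the shared estimate of spread.

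TFEB is a basic helix-loop-helix leucine zipper factor of the MiT/TFE family, which binds an E-box known as the CLEAR element in the promoters of genes for lysosomes and autophagy. In fed cells the kinase mTORC1 phosphorylates TFEB on the lysosome surface, and the phosphate on the serine that S211A removes holds it in the cytosol bound to 14-3-3 proteins. The alanine form cannot be phosphorylated there and enters the nucleus without starvation. Promyelocytes make large stores of azurophil granule proteins, and granules of this kind are relatives of the lysosome.

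The deposited values are reads divided by a factor per library. The 12 libraries held 4474007 to 22488047 recovered reads and the 6 of the TFEB line 7769481 to 20267420. Genes of the mitochondrial genome took 23.8% to 29.4% of the reads with vehicle and 13.3% to 17.9% with doxycycline in this line. The factors did not equalise the libraries: deposited totals in this line averaged 18181800 with doxycycline and 10177500 with vehicle. On the deposited scale the typical expressed nuclear gene stood 0.75 log2 units higher in the induced group, while genes near background did not. Values were therefore also divided, library by library, by a median ratio taken over 7290 nuclear genes that averaged 200 or more, the expressed nuclear genes. This is the expressed-gene scale, and it sets the median expressed gene to no change by construction. Neither scale measures RNA per cell, and in a culture fewer cells of a kind and less RNA per cell cannot be told apart. Every gene was tested with limma on log2(value + 1), with p adjusted over all 23128 genes and a threshold of 0.05. The added 1 makes changes of the lowest genes appear smaller than they are. A gene is said to have risen or fallen when it passed in the same direction on both scales. Libraries are numbered by replicate, and vehicle library 1 or induced library 1 without further mention belongs to the TFEB line. A call is termed firm when it also held on both scales with each of the 12 libraries left out in turn. Pairs of log2 changes, doxycycline minus vehicle, stand as deposited/expressed-gene scale, and runs of 3 values follow replicates 1 to 3 on the deposited scale.

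On the deposited scale 4032 genes (17.4% of those tested) were higher and 1077 (4.66%) lower with induction. On the expressed-gene scale 3324 (14.4%) were higher and 4787 (20.7%) lower. Among the 7290 expressed nuclear genes the deposited scale called 2299 (31.5%) higher and 256 (3.51%) lower, and the expressed-gene scale 2511 (34.4%) higher and 2423 (33.2%) lower. The split between higher and lower depends on the scale: from the deposited values limma called 4405 higher and 2133 lower after TMM scaling, 2632 and 9314 with equal nuclear totals, and 2397 and 9504 with equal upper quartiles. Without vehicle library 2, vehicle library 3 or induced library 3 the deposited scale left 608, 651 and 655 lower genes. No gene was called in opposite directions on the 2 scales. On the deposited scale every induced library lay above every vehicle library in 3862 of the 7290 expressed nuclear genes, and below in 602. Statements below that the groups did not overlap in a gene are to be read against these counts. In all, 3017 genes (13.0%) rose and 1041 (4.50%) fell, and of these 2013 rises (8.70%) and 301 falls (1.30%) were firm. More of the largest called changes were rises. The filter on means admits genes that pass through the induced libraries alone, and the added 1 limits how far low genes can fall. The part of either in these counts was not tested. At least 16-fold changes were called for 395 rises and 0 falls on the deposited scale, and for 230 and 3 on the expressed-gene scale.

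The median change over all tested genes was -0.0017 and -0.72, and over expressed nuclear genes 0.73 and -0.018. The 202 genes with every vehicle value under 50 and every doxycycline value over 200 went from near background to a moderate or high level.

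**Figure D1:**
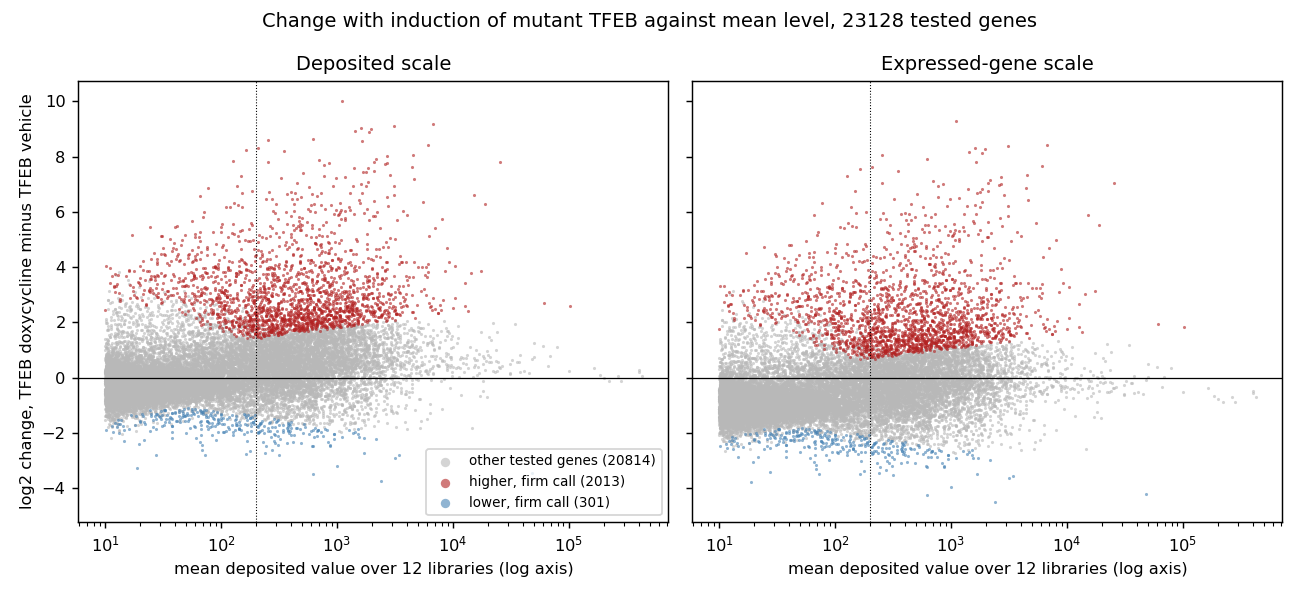
Each point is 1 of 23128 tested genes, with its mean deposited value over 12 libraries on the horizontal log axis and its log2 change, TFEB doxycycline minus TFEB vehicle, on the vertical axis, on the deposited scale (left) and the expressed-gene scale (right). Red marks 2013 firm rises and blue 301 firm falls; the dotted line marks a mean of 200, and the cloud of genes left of it sits lower on the expressed-gene scale.

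The induced gene itself, TFEB (ENSG00000112561.13), read 105, 118 and 149 with vehicle and 17468, 22629 and 14470.4 with doxycycline (log2 7.18, SE 0.44, and 6.43, SE 0.22; limma adjusted p = 3.14e-17). The 2 groups did not overlap, and reads of the vector's copy and of the cell's own gene are counted together. Its relatives stayed low or were not called on both scales. TFE3 read 116, 166 and 155 with vehicle and 238, 498 and 305 with doxycycline, MITF 77.6, 67.5 and 100.3 with vehicle and 139, 183 and 119 with doxycycline and TFEC 73.1, 93.2 and 111 with vehicle and 57.6, 81.8 and 83.2 with doxycycline. TFEC was lower on the expressed-gene scale alone (-0.31/-1.05).

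The 14 largest firm rises among expressed genes lay between 8.07 and 10.01 on the deposited scale. CD52, a small GPI-anchored glycoprotein of lymphocytes and monocytes, read 39.3, 24.9 and 89.4 with vehicle and 21424, 30542 and 27904 with doxycycline. GDF15, a secreted stress cytokine of the TGF-beta family, read 18.3, 12.9 and 35.8 with vehicle and 8286, 17404 and 11552 with doxycycline. The macrophage tetraspan protein TM4SF19 read 14.6, 8.84 and 9.93 with vehicle and 4978, 8367 and 5928 with doxycycline. All of these went from near background to among the well-expressed genes of the induced cells. CCL18, a chemokine made by macrophages, read 11.9, 7.23 and 12.9 with vehicle and 4219, 7640.1 and 5102 with doxycycline. ATP6V0D2, the d2 subunit of the vacuolar proton pump found in osteoclasts and macrophages, read 12.8, 10.4 and 23.8 with vehicle and 6655, 8733 and 6945 with doxycycline. SPINK1, a secreted trypsin inhibitor, read 21, 7.23 and 23.8 with vehicle and 3730.4, 8849 and 7113 with doxycycline. In each of them the lowest induced library lay far above the highest vehicle library. GPNMB, a glycoprotein of melanosomes and lysosomes, read 86.8, 49.8 and 77.5 with vehicle and 19662, 31231 and 22409 with doxycycline. EPS8, an adaptor that caps and bundles actin, read 65.8, 53 and 71.5 with vehicle and 11765, 23187 and 18491 with doxycycline.

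Of the other 6, DDX39BP2 (ENSG00000238024.1) is annotated as a pseudogene and read 3.65, 2.41 and 3.97 with vehicle and 3746, 4983 and 4598 with doxycycline; reads of a near-identical copy could be counted there. AC006967.1 (ENSG00000269446.1) read 14.6, 8.84 and 20.9 with vehicle and 6592, 10326 and 6751 with doxycycline. The remaining 4 were lincRNAs: AC079767.4 read 5.48, 1.61 and 12.9 with vehicle and 2339, 2946 and 2109 with doxycycline and LINC01050 3.65, 6.43 and 1.99 with vehicle and 1304, 1639 and 1250 with doxycycline. RP11-145M4.1 read 0, 2.41 and 3.97 with vehicle and 783, 1281 and 982 with doxycycline and RP11-145M4.2 0.913, 0 and 7.95 with vehicle and 660.1, 1029.7 and 780.3 with doxycycline. This last pair comes from 1 place, since their gene models overlap on the same strand in the GENCODE annotation. For all 14 the interaction between vector and drug was called higher on both scales. It contains the change by which these genes were chosen, so it is not separate support. On the deposited scale 3651 of all 4032 genes called higher had an interaction called in the same direction.

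The 14 largest firm falls were smaller, between -2.46 and -3.75 on the deposited scale, and several are genes of promyelocyte granules. PRTN3, the azurophil protease proteinase 3, read 1804, 4632 and 3131 with vehicle and 227, 284 and 165 with doxycycline (log2 -3.75, SE 0.58, and -4.50, SE 0.25). MPO, myeloperoxidase, read 42625, 81792 and 65092 with vehicle and 5736, 6504 and 4571 with doxycycline (log2 -3.46, SE 0.62, and -4.21, SE 0.29). LYZ, lysozyme, read 3366, 4578 and 3758 with vehicle and 788, 478 and 377 with doxycycline (log2 -2.89, SE 0.58, and -3.64, SE 0.30). The 2 groups did not overlap in any of the 14. NFE2, a transcription factor of blood cell precursors, read 523, 1016 and 817 with vehicle and 71.3, 75.3 and 55 with doxycycline. MYB, a transcription factor of immature blood cells, read 2836, 5197 and 4969 with vehicle and 589, 670.3 and 555 with doxycycline. MLC1, a membrane protein, read 710.5, 1825 and 1346 with vehicle and 98.5, 174 and 128 with doxycycline. UHRF1, which recruits the maintenance DNA methyltransferase to replicated DNA, read 681, 1172 and 1233 with vehicle and 157, 212 and 174 with doxycycline. SERPINB10, a serpin of marrow myeloid cells, read 1378, 2506 and 2480.3 with vehicle and 356, 327 and 253 with doxycycline. PTPRCAP, which binds the phosphatase CD45, read 244, 497 and 378 with vehicle and 52.4, 52.7 and 47.7 with doxycycline, and GAPT, a transmembrane adaptor that binds GRB2, 145, 295 and 372 with vehicle and 35.6, 40.9 and 36.7 with doxycycline. The others were PAQR4, MZB1, the histone gene HIST1H4L and RP11-800A3.4, with log2 changes of -2.60/-3.33, -2.48/-3.22, -2.46/-3.21 and -2.46/-3.21.

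Most of these genes were also called lower in the EV line with the drug on the deposited scale, where expressed genes stood lower as a block. There 13 of the 14 were called lower, all but GAPT, against 23.3% of all 23128 tested genes. The median expressed gene changed by -1.29 in the EV line on that scale. The interaction was called for NFE2 and GAPT alone on the deposited scale. On the expressed-gene scale the interaction was called for all 14, each with the more negative response in the TFEB line. Here too the interaction contains the change by which the genes were chosen. PRTN3 read 3887, 10324 and 3014 with vehicle and 624, 602 and 133 with doxycycline in the EV line, MPO 86350.4, 187310 and 55736 with vehicle and 24774, 15361 and 3796 with doxycycline and MYB 6193, 11276 and 4934 with vehicle and 1859, 1173 and 563 with doxycycline.

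**Figure D2:**
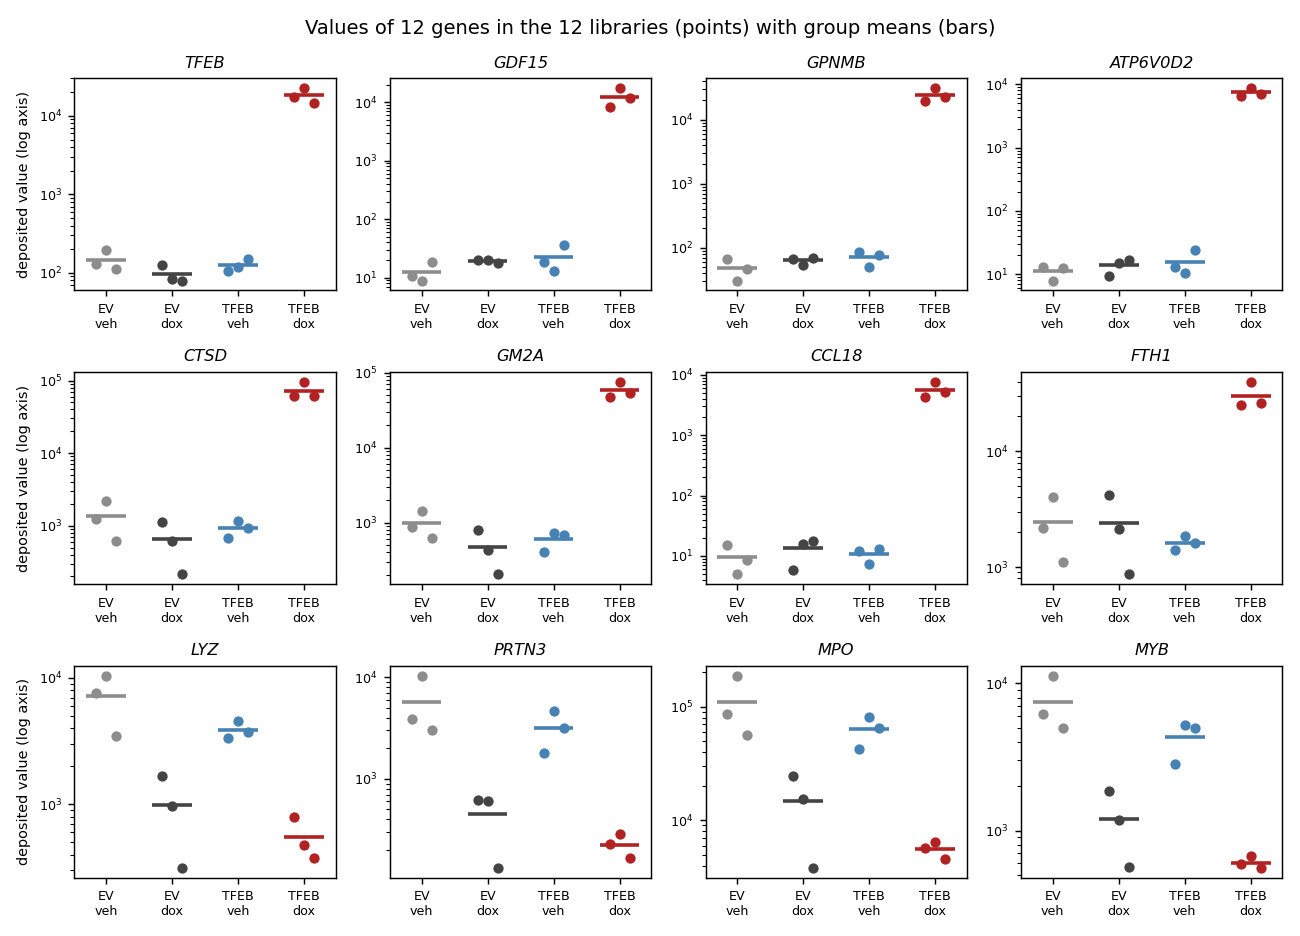
Deposited values of 12 genes (vertical log axes) in the 12 libraries, 3 points per group in replicate order with the group mean as a bar; EV is the empty-vector line, veh vehicle and dox doxycycline. In TFEB and 7 genes that rose the 3 induced libraries stand above the other 9, while LYZ, PRTN3, MPO and MYB are low in both doxycycline groups.

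The genes that rose and held the most reads, which grow with transcript length as well as level, included ferritin and lysosomal genes. FTL, the light chain of the iron store ferritin, read 18131, 32027 and 25843 with vehicle and 134468, 208052 and 144630 with doxycycline (log2 2.69, SE 0.61, and 1.94, SE 0.32). CIR1, a corepressor that binds the Notch pathway factor RBPJ, read 229, 372 and 786 with vehicle and 46180, 137621 and 120382 with doxycycline (log2 7.81, SE 0.56, and 7.06, SE 0.31), and so joined the genes with the most reads. CTSD, the lysosomal aspartyl protease cathepsin D, read 678, 1173 and 946 with vehicle and 61479.8, 95848 and 61234 with doxycycline, GM2A, the activator protein for ganglioside breakdown, 403, 734 and 679 with vehicle and 47894, 75115 and 53663 with doxycycline, and RAB7A, the small GTPase of late endosomes, 2319.5, 4529.8 and 5462 with vehicle and 47157, 71139 and 54502 with doxycycline. The groups did not overlap in any of these 5. RN7SL1, the RNA of the signal recognition particle, read 24002, 40872 and 63935 with vehicle and 118293, 453358 and 258956 with doxycycline; the file lists it as antisense and it has near-identical copies, so its value is uncertain. YBX1, an mRNA-binding protein, rose by 1.94/1.19 without a firm call, which ended on the deposited scale without vehicle library 1 (limma adjusted p = 0.0912) or induced library 2 (0.0934). NPM1, a nucleolar chaperone, rose by 1.67/0.92, and its deposited-scale call ended without vehicle library 1 or 2 or any 1 induced library, with limma adjusted p from 0.0587 to 0.159.

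Among the most abundant falls were MPO, LYZ and MYB with firm calls and MYC without one. MYC, a driver of growth and ribosome production, read 9265, 20658 and 26296 with vehicle and 3158, 7047 and 5132 with doxycycline (log2 -1.82, SE 0.59, and -2.57, SE 0.23). Its deposited-scale call ended without vehicle library 2 or 3 or induced library 1 or 3, with limma adjusted p from 0.0623 to 0.127. RUNX1, a transcription factor of blood cells, and the histone genes HIST1H2AG and HIST1H2BF changed by -1.85/-2.60, -1.81/-2.56 and -1.76/-2.51. LYST, which governs the size of lysosomes and granules, changed by -1.59/-2.35. The calls of these 4 on the deposited scale each ended without vehicle library 2, with limma adjusted p of 0.076, 0.135, 0.107 and 0.117, and without induced library 1 (0.07, 0.0642, 0.0613 and 0.125) or 3 (0.0677, 0.156, 0.114 and 0.102). With limma adjusted p in brackets, vehicle library 3 ended those of RUNX1 (0.064), HIST1H2AG (0.0634) and LYST (0.139), induced library 2 those of HIST1H2AG (0.0683), HIST1H2BF (0.0548) and LYST (0.0777), and EV vehicle library 1 (0.0515) or EV doxycycline library 2 (0.0527) that of LYST.

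Shares of the reads of nuclear genes do not depend on the scale of a library. Lysosomal proteases took 0.131% to 0.15% with vehicle and 0.815% to 0.921% with doxycycline, enzymes and activators of lysosomal lipid breakdown 0.055% to 0.0611% with vehicle and 0.57% to 0.645% with doxycycline, and the soluble V1 sector of the proton pump 0.0435% to 0.0475% with vehicle and 0.277% to 0.286% with doxycycline. Chemokines and cytokines took 0.0504% to 0.0583% with vehicle and 0.352% to 0.534% with doxycycline. Each of these 4 groups took a larger share in every induced library than in every vehicle library. Azurophil granule proteins went the other way, with 1.08% to 1.32% with vehicle and 0.154% to 0.182% with doxycycline, as did genes of DNA replication, with 0.405% to 0.419% with vehicle and 0.0877% to 0.107% with doxycycline, and of mitosis, with 0.358% to 0.46% with vehicle and 0.119% to 0.168% with doxycycline. Cytosolic ribosomal proteins, the largest list, took 7.69% to 9.22% with vehicle and 5.91% to 6.2% with doxycycline. In the EV line azurophil granule proteins took 1.02% to 1.42% with vehicle and 0.267% to 0.508% with doxycycline, and lysosomal proteases 0.132% to 0.153% with vehicle and 0.139% to 0.171% with doxycycline.

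**Figure D3:**
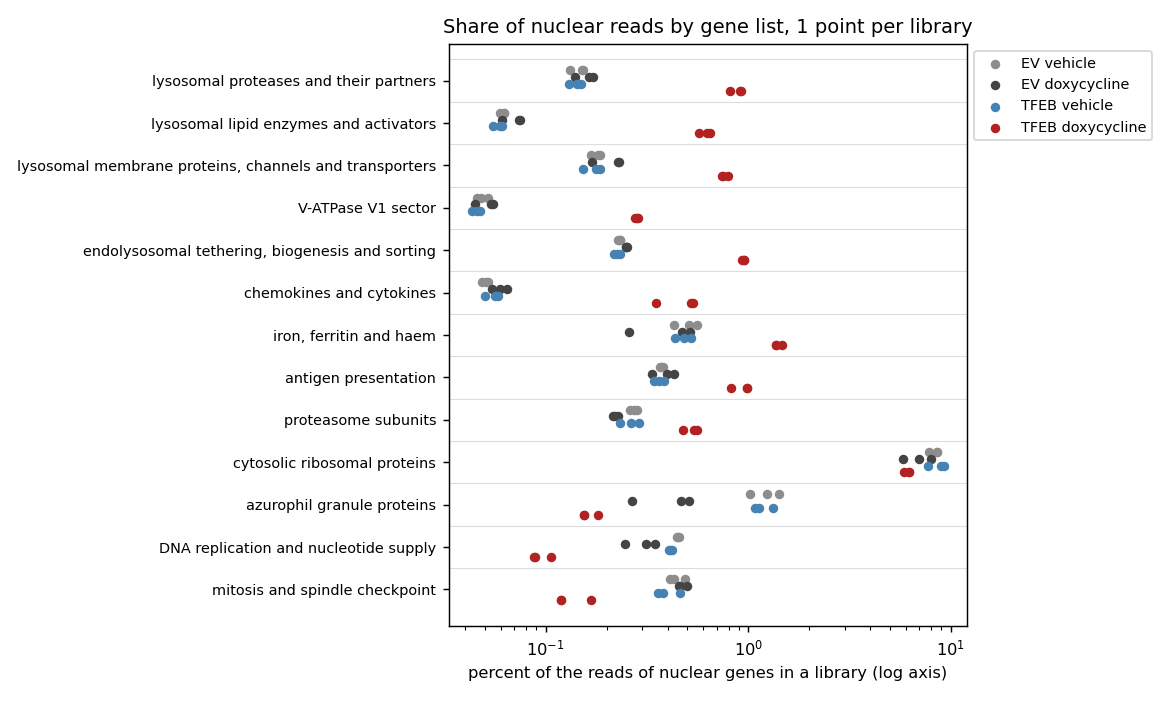
Percent of the reads of nuclear genes (horizontal log axis) taken by 13 gene lists, 1 point per library, coloured by group; a share needs no scale between libraries. For every list shown the 3 induced libraries (red) lie apart from the 3 TFEB vehicle libraries (blue).

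Genes of the lysosome rose as a broad set. The vacuolar proton pump (V-ATPase) couples a V1 sector that splits ATP to a V0 sector that passes protons into the lysosome. Of 12 tested V1 genes 8 rose firmly and 0 fell firmly, and of 11 V0 and accessory genes 8 rose firmly and 0 fell firmly, against 8.70% and 1.30% of all tested genes. Among the 7290 expressed nuclear genes alone, firm rises were 19.7% and firm falls 1.41%, and lists made mostly of such genes are to be read against these shares. The V1 members that rose were subunits A, B2, C1, D, E1, F, G1 and H. ATP6V1A, the catalytic subunit, read 207, 267 and 290.1 with vehicle and 3079, 5821 and 4279.6 with doxycycline. Its partner ATP6V1B2 read 258, 399 and 410.2 with vehicle and 5619, 8507 and 6379.6 with doxycycline and the regulatory subunit ATP6V1H 90.4, 121 and 155 with vehicle and 2346, 3895 and 2801 with doxycycline. No vehicle library reached an induced one in any of the 3. In the membrane sector TCIRG1, the a3 subunit used in osteoclast and immune cell lysosomes, read 938, 1315 and 1049 with vehicle and 16179.9, 22142 and 14563 with doxycycline, and ATP6V0D1, the common d subunit, 331, 524 and 452 with vehicle and 6666, 7482 and 5486 with doxycycline. With ATP6V0D2 described above, both forms of subunit d rose, by 8.87/8.13 for d2 and 3.92/3.17 for d1. Not every member rose. ATP6V0A2 and ATP6V0E2 were lower on the expressed-gene scale alone (0.17/-0.58, -0.78/-1.52), and ATP6V1C2 was called lower on both scales (-1.05/-1.78), a call that ended on the deposited scale without vehicle library 3 or induced library 2 or 3, with limma adjusted p from 0.0854 to 0.121. The median change was 3.61/2.86 over the V1 list and 2.64/1.89 over the V0 list. The interaction with the EV line was called higher for 8 of 12 and 8 of 11 on the expressed-gene scale, with 2 and 3 lower, and for 8 and 8 on the deposited scale.

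Hydrolases rose in part. Of 19 proteases and their partners 7 rose firmly and 0 fell firmly. Beside CTSD, these were CTSA, the protective protein of 2 glycosidases, which read 503, 761 and 669 with vehicle and 21846, 27417 and 18437 with doxycycline, the cysteine cathepsins CTSL, CTSB and CTSS (3.78/3.03; 3.32/2.57; 2.77/2.02), and the peptidases TPP1 and DPP7 (2.62/1.87; 2.59/1.84). CTSB read 252, 442 and 383 with vehicle and 2980.1, 4492 and 3224 with doxycycline. CTSC, which activates the serine proteases of azurophil granules, and PRCP were lower on the expressed-gene scale alone (-0.36/-1.11; -0.49/-1.23).

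Among 24 glycosidases and sulfatases 11 rose firmly and 0 fell firmly. NEU1, the sialidase that works with CTSA, read 161, 236 and 199.7 with vehicle and 2138, 2828 and 2255 with doxycycline. HEXA, a hexosaminidase chain, changed by 3.30/2.55, and the heparan sulfatase SGSH by 3.87/3.12. The groups did not overlap in these genes. HGSNAT and ARSB were lower on the expressed-gene scale alone (0.067/-0.68; -0.44/-1.18).

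Of 14 genes of lipid breakdown 9 rose firmly and 0 fell firmly. GM2A led, followed by the acid phosphatase ACP5 of osteoclasts (6.46/5.72), the ceramidase ASAH1 (4.48/3.73), the sphingomyelinase SMPD1 (4.19/3.44) and PSAP, the precursor of the saposins (4.13/3.38). PSAP read 708, 1232 and 1553 with vehicle and 13769.9, 27278 and 19362 with doxycycline and ASAH1 174, 276 and 226 with vehicle and 4326, 6021 and 4675 with doxycycline. NPC2, which carries cholesterol inside the lysosome, read 76.7, 108 and 132 with vehicle and 1419, 1970 and 1433 with doxycycline. Every induced library again lay above every vehicle library.

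Genes of the lysosomal membrane rose too. Of 34 membrane proteins, channels and transporters 23 rose firmly and 1 fell firmly, with medians of 2.36/1.61. CD63, a tetraspanin of late endosomes, read 352, 668 and 722 with vehicle and 24767, 36678 and 29056 with doxycycline, and the coat glycoprotein LAMP1 642, 1209 and 1014 with vehicle and 7745, 9319.7 and 6052 with doxycycline. NPC1, which hands on the cholesterol carried by NPC2, read 457, 599 and 611 with vehicle and 4698, 7097 and 4885 with doxycycline. The calcium channel MCOLN1 read 52.1, 75.5 and 73.5 with vehicle and 530.2, 764 and 563 with doxycycline. The groups did not overlap in these 4 genes. The chloride exchanger CLCN7 and its partner OSTM1 rose together (2.44/1.68; 3.83/3.08), as did the amino acid and peptide carriers SLC36A1, SLC15A3 and SLC15A4 (3.71/2.96; 3.58/2.83; 4.19/3.44). The 1 firm fall was ABCA2, a lipid transporter of the ABC family, which read 1312, 2177 and 1858 with vehicle and 428, 463 and 313 with doxycycline (log2 -2.14, SE 0.56, and -2.89, SE 0.19). LAMP2 rose by 1.62/0.87, and its deposited-scale call ended without any 1 of the 6 libraries of the TFEB line, with limma adjusted p from 0.0545 to 0.15.

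Enzymes reach the lysosome on mannose 6-phosphate tags and their receptors. Of 37 genes of sorting, tethering and organelle biogenesis 18 rose firmly and 0 fell firmly, and 23 rose and 0 fell in all. IGF2R, the large mannose 6-phosphate receptor, read 955, 1286 and 1317 with vehicle and 27262, 40093 and 25664 with doxycycline, and the small receptor M6PR and the tagging enzyme subunits GNPTAB and GNPTG changed by 2.47/1.72, 2.47/1.72 and 2.10/1.35. The retromer subunits VPS26A and VPS35, which return receptors to the Golgi, changed by 3.43/2.68 and 3.02/2.27. The tethering subunits VPS18, VPS11 and VPS41 changed by 3.96/3.21, 2.60/1.85 and 1.91/1.16. The BLOC-1 subunits DTNBP1, BLOC1S2 and BLOC1S3 rose firmly as well (3.47/2.72; 2.80/2.06; 2.23/1.49), while BLOC1S5 and HPS6 were lower on the expressed-gene scale alone (-0.039/-0.78; -0.28/-1.01).

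The machinery that reports nutrients to mTORC1, the kinase that acts on TFEB, rose in part. Folliculin (FLCN) with FNIP1 or FNIP2 turns on RRAGC and RRAGD, which bring TFEB to mTORC1. Of 30 genes of this list 12 rose firmly and 1 fell firmly. FNIP2 read 195, 214 and 229 with vehicle and 13410.5, 16974 and 11999.7 with doxycycline, RRAGC 115, 161 and 179.8 with vehicle and 2673, 3020.1 and 2389 with doxycycline and RRAGD 454, 839.6 and 775 with vehicle and 8544, 9026 and 6103 with doxycycline. All 3 were far apart between the groups. FLCN and FNIP1 changed by 2.25/1.50 and 1.87/1.12. RRAGA changed by 2.40/1.66, the Ragulator subunits LAMTOR1, LAMTOR3 and LAMTOR5 by 2.11/1.36, 2.02/1.28 and 3.27/2.52, and the mTORC1 activator RHEB by 2.59/1.84. Inhibitors moved too. TSC1 and the leucine sensor SESN2 rose by 1.84/1.08 and 2.34/1.59, and NPRL2 of the GATOR1 complex was the 1 firm fall (-1.60/-2.34).

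Of 39 core autophagy genes 16 rose firmly and 0 fell firmly, with medians of 1.10/0.36. The phosphoinositide reader WIPI1 read 53.9, 68.3 and 78.5 with vehicle and 1159, 2318 and 1777 with doxycycline. Of the LC3 and GABARAP proteins that coat the autophagosome, MAP1LC3B read 212, 280.4 and 225 with vehicle and 3663, 4611 and 3305 with doxycycline, and GABARAPL1, GABARAPL2 and GABARAP changed by 3.54/2.80, 3.49/2.74 and 2.25/1.51. The tethering proteins EPG5 and PLEKHM1 and the initiation scaffold RB1CC1 rose (3.63/2.88; 3.13/2.38; 2.89/2.14). ULK1, the kinase that starts autophagy, was lower on the expressed-gene scale alone (-0.24/-0.99), with WIPI2 and ATG4C (-0.033/-0.78; -0.39/-1.13).

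Among 17 cargo receptors 8 rose firmly and 0 fell firmly. OPTN, a receptor for mitochondria and bacteria, read 29.2, 24.1 and 21.9 with vehicle and 555, 1177 and 1007 with doxycycline, and SQSTM1 (p62) 542, 838 and 909.9 with vehicle and 4098, 7735 and 5320.4 with doxycycline. The mitochondrial receptors BNIP3 and BNIP3L and the reticulum receptor FAM134B rose (2.14/1.39; 2.60/1.85; 2.89/2.14). Although these genes rose, the list as a whole took shares of nuclear reads that overlapped between the groups, 0.249% to 0.274% with vehicle and 0.265% to 0.309% with doxycycline. The EV line's response in the 39 core autophagy genes turned with the scale. With the drug 15 were called higher and 1 lower there on the expressed-gene scale, and 5 lower on the deposited scale. Of all 23128 tested genes 10204 were called higher in the EV line on the former scale, and 5396 (23.3%) lower on the latter. Of expressed nuclear genes, which made up 30 of the 39, 20.9% were called higher and 17.5% lower there on the former scale. Within the list the interaction was higher for 13 and lower for 11 on the expressed-gene scale, and higher for 26 on the deposited scale.

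Promoters of tested genes, the lists above among them, were read for the E-box that TFEB is known to bind. RefSeq windows of GRCh38.p14 from 250 bases before to 50 after each gene's start were found for 15202 of 23128 tested genes, and searched for CACGTG and for its 8-letter form TCACGTGA, which contains it; both equal their own reverse complement, so each search covers both strands. The 8-letter form stood in 1.04% of all 27305 windows of that length, 1.48% of the windows of tested genes and 150 of the 6008 of expressed nuclear genes. It stood in 90 of 2269 windows of genes that rose (3.97%) and in 4 of 651 of genes that fell (0.614%). The shorter form stood in 13.6% and 7.22% of these, in 8.93% of tested genes and in 7.43% of all windows. Among expressed nuclear genes the shorter form stood in 12.1%, in 14.7% of those that rose and in 7.92% of those that fell. Taking the 6008 expressed genes with a window by their letters, 57.3% of the 150 with the 8-letter form were called higher and 16.7% lower on the expressed-gene scale. The shares were 38% and 31.1% for 579 genes with the shorter form alone and 33.4% and 34.2% for 5279 with neither. Median changes on that scale were 0.65, 0.082 and -0.037, and in the EV line with the drug 0.075, -0.09 and 0.0058. The lists differed. CACGTG stood in 2 of 33 windows of core autophagy genes, 1 of 14 of cargo receptors and 1 of 7 of V1 genes. It stood in 10 of 27 windows of sorting, tethering and biogenesis genes, 5 of 13 of proteases and 6 of 27 of lysosomal membrane genes. Lists that did not rise held it too. Of ribosome assembly genes 13 of 33 windows held CACGTG, and 0 of those 13 genes rose. Of DNA replication genes 4 of 35 held it, 3 with the 8-letter form, and 0 of those 4 rose. A match of letters is a description and does not show that TFEB binds there.

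**Figure D4:**
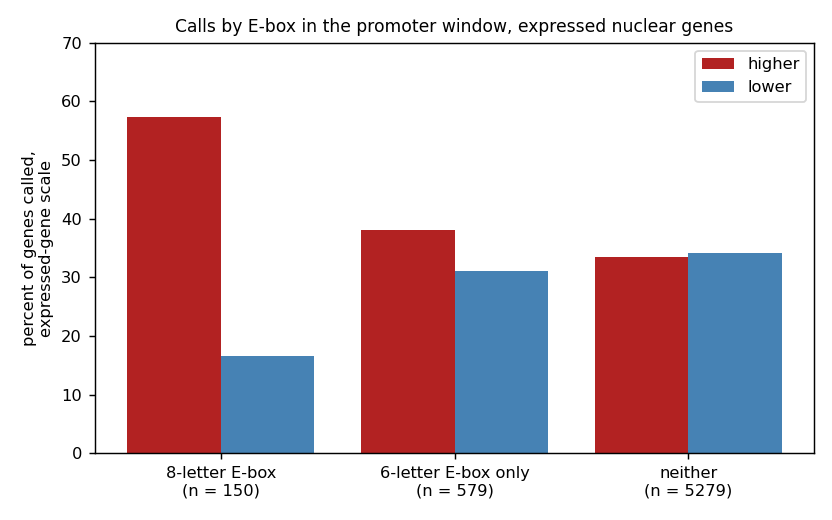
Percent of expressed nuclear genes called higher (red) or lower (blue) on the expressed-gene scale (vertical axis, from 0), for 150 genes whose promoter window holds the 8-letter E-box, 579 with the 6-letter form alone and 5279 with neither. Calls higher outnumber calls lower in the first class (57.3% against 16.7%) and are near equal in the last (33.4% against 34.2%).

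A stretch of 60 bases upstream of the start that holds the motif is shown for 9 genes that rose, chosen after their values were seen to span a protease, a receptor, the proton pump, a channel, the lysosome coat, tethering, a glycosidase and a death gene. They run 5′ to 3′ along the gene's strand, with TCACGTGA in capitals.
CTSA: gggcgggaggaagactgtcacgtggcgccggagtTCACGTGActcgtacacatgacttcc
IGF2R: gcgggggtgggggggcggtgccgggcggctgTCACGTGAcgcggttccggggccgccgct
ATP6V0D1: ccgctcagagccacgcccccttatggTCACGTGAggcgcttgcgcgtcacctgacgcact
MCOLN1: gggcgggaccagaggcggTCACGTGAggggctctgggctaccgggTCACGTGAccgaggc
LAMP1: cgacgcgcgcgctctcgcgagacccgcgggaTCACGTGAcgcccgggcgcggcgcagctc
ATP6V1G1: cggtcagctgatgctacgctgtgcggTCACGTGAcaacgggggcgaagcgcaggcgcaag
VPS11: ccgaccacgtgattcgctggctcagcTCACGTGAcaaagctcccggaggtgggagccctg
GAA: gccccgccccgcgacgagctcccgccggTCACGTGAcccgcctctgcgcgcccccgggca
BAX: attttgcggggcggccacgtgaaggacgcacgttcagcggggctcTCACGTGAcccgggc

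These stretches of GRCh38.p14 lie upstream of the annotated start of each gene. The CTSA window is chr20:45891275-45891334 on the plus strand, that of IGF2R chr6:159969022-159969081 on the plus strand and that of ATP6V0D1 chr16:67481184-67481243 on the minus strand. MCOLN1 has its window at chr19:7522564-7522623 on the plus strand, where the motif stands at 2 places, LAMP1 at chr13:113297179-113297238 on the plus strand and ATP6V1G1 at chr9:114587684-114587743 on the plus strand. For VPS11 it is chr11:119067757-119067816 on the plus strand, for GAA, the lysosomal glucosidase lost in Pompe disease, chr17:80101521-80101580 on the plus strand, and for BAX, a pore-forming death protein, chr19:48954815-48954874 on the plus strand. GAA read 146, 141 and 106 with vehicle and 698, 794 and 527 with doxycycline and BAX 122, 201 and 212 with vehicle and 698, 811 and 545 with doxycycline, and the groups overlapped in neither.

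Part of the stress genes rose. The integrated stress response raises the factor ATF4 and its targets when translation initiation is curbed. Of 24 genes 9 rose firmly and 0 fell firmly. After GDF15 came NUPR1, a small chromatin protein of stressed cells, at 42.9, 37 and 68.5 with vehicle and 5829, 7554 and 5549 with doxycycline, DDIT3, which encodes CHOP, at 209, 319.8 and 396 with vehicle and 4306, 5044 and 4713 with doxycycline, and PPP1R15A, the phosphatase subunit that ends the response, at 153, 145 and 229 with vehicle and 4066, 4943 and 3498 with doxycycline. TRIB3, ATF3, the asparagine synthetase ASNS and CHAC1 also rose (2.86/2.11; 2.45/1.70; 2.29/1.54; 1.80/1.06). ATF4 itself was higher on the expressed-gene scale alone (1.45/0.70), and ATF5 lower on it (-0.043/-0.79).

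Among 32 genes of tRNA charging and amino acid supply 6 rose firmly and 0 fell firmly: the synthetases GARS, WARS, SARS and CARS, the cysteine-forming enzyme CTH and the glutamine carrier SLC38A1. GARS read 2467, 3807 and 4701 with vehicle and 29403, 50255 and 36622 with doxycycline and WARS 2961, 5138 and 3905 with vehicle and 27745, 35036 and 25334 with doxycycline. Another 7 rose without a firm call. Rises numbered 13 in all, but 6 without vehicle library 1 or induced library 2 or 3, 7 without vehicle library 3 and 8 without vehicle library 2. Among the expressed members alone firm rises were 6 of 30, close to the 19.7% of all expressed nuclear genes. With the drug in the EV line 24 of the 32 were called lower on the expressed-gene scale and 29 on the deposited scale. The interaction was higher for 21 and lower for 4 on the former, and higher for 26 on the latter.

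Of 33 genes of folding in the endoplasmic reticulum 4 rose firmly and 1 fell firmly. The channel subunits SEC61B and SEC61G and the co-chaperones DNAJB9 and DNAJC10 rose (2.48/1.73; 2.86/2.11; 2.25/1.50; 1.97/1.22), and DERL3, of reticulum degradation, fell (-1.93/-2.68). HSPA5, the main chaperone there, rose by 1.71/0.96, and its deposited-scale call ended without vehicle library 1 or 2 or induced library 2 or 3, with limma adjusted p from 0.0613 to 0.169. Rises in this list numbered 9, but 4 without vehicle library 1 or induced library 2, 5 without induced library 3 and 15 without EV doxycycline library 3.

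Of 34 proteasome subunits 8 rose firmly and 0 fell firmly, among them PSMA7 of the catalytic barrel at 300.4, 594 and 654 with vehicle and 8868, 10161 and 7772 with doxycycline and PSMD8 of the lid at 956, 2081 and 1696 with vehicle and 17662, 22320.1 and 16671 with doxycycline. The groups did not overlap in either. Rises numbered 21 in all, but 8 without vehicle library 1 or induced library 2, 10 without induced library 3 and 13 without vehicle library 2. PSME1 and PSME2, of the interferon-inducible cap, were lower on the expressed-gene scale alone (0.38/-0.37; -0.29/-1.03).

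Of 23 heat shock chaperones 3 rose firmly and 0 fell firmly: BAG3, which hands clients to autophagy, at 29.2, 45 and 40.7 with vehicle and 1356, 1748 and 1169 with doxycycline, and HSPA4 and the mitochondrial HSPA9 (2.95/2.20; 2.08/1.33). Firm rises among the expressed members were 4 of 32 in the reticulum folding list and 3 of 20 in the chaperone list, shares below the 19.7% of all expressed nuclear genes.

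Iron genes and part of the redox genes rose in the same libraries. Lysosomes release iron from ferritin and haem, and haem oxygenase and biliverdin reductase break haem down. Of 19 iron genes 8 rose firmly and 0 fell firmly, and 12 rose and 0 fell in all. FTH1, the ferritin heavy chain, read 1398, 1860 and 1628 with vehicle and 25013, 39817 and 26108 with doxycycline, and HMOX1, the inducible haem oxygenase, 27.4, 17.7 and 27.8 with vehicle and 674, 989.9 and 621 with doxycycline. BLVRB, a biliverdin reductase, read 89.5, 142 and 151 with vehicle and 3744, 4725 and 3537 with doxycycline. The groups did not overlap. HMOX2, BLVRA, the iron sensor ACO1 and the haem exporter FLVCR1 also rose (2.90/2.15; 2.33/1.59; 2.39/1.64; 1.75/1.0). Of nuclear reads, iron genes took 0.438% to 0.523% with vehicle and 1.37% to 1.46% with doxycycline.

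Among 22 genes of glutathione and the NRF2 pathway 6 rose firmly and 0 fell firmly. Firm rises were 4 of 18 among the expressed members, near the 19.7% of all expressed nuclear genes. Thioredoxin (TXN) read 247, 491 and 787 with vehicle and 3017, 5894 and 4530.3 with doxycycline and the peroxidase GPX1 1509, 3156 and 2659 with vehicle and 8909.9, 12943 and 10209 with doxycycline, and the glutathione reductase GSR and transferase GSTP1 rose (2.90/2.15; 2.44/1.69). Rises in this list numbered 10, and 6 without any 1 of vehicle libraries 1 and 2 or induced libraries 2 and 3.

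Lipid lists split. Of 30 genes of lipid droplets and fatty acids 6 rose firmly and 1 fell firmly. The nuclear receptors PPARA, PPARD and PPARG, which turn on fatty acid use and storage, all rose (3.53/2.78; 5.74/4.99; 2.48/1.74), as did their coactivator PPARGC1A, a known TFEB target in liver, at 81.3, 62.7 and 57.6 with vehicle and 949, 1723 and 1130.1 with doxycycline. PPARD read 73.1, 77.1 and 64.6 with vehicle and 2971, 5754 and 3372 with doxycycline. PLIN2, which coats lipid droplets, read 61.2, 84.4 and 121 with vehicle and 832, 1584 and 1271 with doxycycline. In contrast CIDEB, a lipid droplet protein, fell (-2.44/-3.18), and FASN and ACACA, which build fatty acids, were lower on the expressed-gene scale alone (-1.09/-1.84; -0.74/-1.49).

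Of 30 cholesterol genes 3 rose firmly and 0 fell firmly, among the former the cyclase LSS at 359.8, 689 and 741 with vehicle and 9529, 9743 and 6441 with doxycycline and the esterifying enzyme SOAT1 (2.98/2.23). On the expressed-gene scale 13 others, SQLE of the synthesis pathway among them, were lower (SQLE -0.86/-1.60). The median over the list was 0.35/-0.40, and its share of nuclear reads 0.243% to 0.291% with vehicle and 0.216% to 0.226% with doxycycline. Among expressed members 5 of 18 lipid droplet and 3 of 21 cholesterol genes had a firm rise, the latter below the 19.7% of all expressed nuclear genes.

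Of 31 genes of glycolysis and the pentose phosphate path 6 rose firmly and 0 fell firmly: the glucose carriers SLC2A1 and SLC2A3, the hexokinases HK1 and HK2, PFKFB3 and the neuronal enolase ENO2. HK2 read 346, 575 and 683 with vehicle and 7369, 8411 and 5780.3 with doxycycline and SLC2A3 changed by 3.97/3.22. The later enzymes GPI, PGAM1 and LDHA were lower on the expressed-gene scale alone (-0.54/-1.29; 0.19/-0.56; 0.17/-0.59), and the list took 1.1% to 1.37% with vehicle and 1.08% to 1.47% with doxycycline of nuclear reads. Firm rises were 6 of 26 among its expressed members, near the 19.7% of all expressed nuclear genes.

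Among 36 nuclear genes of the respiratory chain only SDHB, an iron-sulphur subunit of complex II, had a firm call, with 230.1, 480.5 and 535 with vehicle and 2732, 4109 and 3135 with doxycycline. Rises numbered 10, but 1 without vehicle library 1 or induced library 2, 2 without induced library 3 and 5 without vehicle library 2. None of the 13 mRNAs of the mitochondrial genome rose or fell, with 0 called on the deposited scale by limma, also at an unadjusted p under 0.05, and 0 by edgeR and DESeq2; set against the reads of nuclear genes they stood at 29.3% to 40.4% with vehicle and 14.6% to 20.9% with doxycycline.

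SAT1, which acetylates polyamines for export or breakdown, read 103, 121 and 187 with vehicle and 6213, 13945 and 11509 with doxycycline. The lysosomal polyamine exporter ATP13A2 changed by 2.86/2.11. These were the 2 firm rises of 13 polyamine genes. Both were among the 9 expressed members, a share near the 19.7% of all expressed nuclear genes. IDH1, the cytosolic isocitrate dehydrogenase, read 184, 382 and 423 with vehicle and 1679.7, 4459.7 and 3579 with doxycycline and was the 1 firm rise among 15 genes of 2-oxoglutarate supply and DNA methylation, where UHRF1 was the 1 firm fall. DNMT1, the maintenance methyltransferase that UHRF1 recruits, was lower on the expressed-gene scale alone (-1.32/-2.07).

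Genes of growth and division went down on the expressed-gene scale, and part of them on both. Of 40 genes of DNA replication and nucleotide supply 0 rose firmly and 8 fell firmly, and 39 were lower on the expressed-gene scale, 37 to 39 with 1 library left out. MCM7, a subunit of the replicative helicase, read 1139, 2045 and 2247 with vehicle and 363, 553 and 372 with doxycycline, and PCNA, the sliding clamp, 676, 1191 and 1447 with vehicle and 228, 371 and 198 with doxycycline. MCM3, GINS2, PRIM1, TK1, CDC6 and CHAF1B were the other firm falls. Falls on both scales numbered 18, but 8 without vehicle library 3, 9 without vehicle library 2 or induced library 3, 10 without induced library 2 and 11 without induced library 1. The interaction turned with the scale. On the expressed-gene scale it was lower for 36 of 40 and higher for 1. From the deposited values limma called 2 higher and 0 lower, the lower ones numbering 0 at an unadjusted p under 0.05, 8 by edgeR and 1 by DESeq2. In the EV line 19 of 40 were called lower with the drug on the expressed-gene scale and 37 on the deposited scale.

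Of 33 genes of mitosis 31 were lower on the expressed-gene scale, 29 to 32 with 1 library left out, and none had a firm call; on the deposited scale limma called 1, KIF20A, with a median of -0.60 over the list. MKI67, a marker of cycling cells, read 6048, 8808 and 10899.7 with vehicle and 7946, 7099 and 4835 with doxycycline. These groups overlap. Mitosis genes stood lower in their share of reads and on the expressed-gene scale. In the deposited values 7 of the 33 lay below vehicle in every induced library and 0 above, and KIF20A alone was called. In the EV line 2 of 33 were called with the drug on the expressed-gene scale, both higher, and 15 were lower on the deposited scale. The interaction was lower for 31 on the expressed-gene scale. From the deposited values limma called 0 higher (4 at an unadjusted p under 0.05, 0 by edgeR and 1 by DESeq2) and 0 lower (0 at an unadjusted p under 0.05, 3 by edgeR and 1 by DESeq2).

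CDKN1A, the cyclin-dependent kinase inhibitor p21, read 38.4, 26.5 and 53.6 with vehicle and 5790.4, 8762 and 6353 with doxycycline (log2 7.46, SE 0.38, and 6.71, SE 0.31), and GADD45A, a growth arrest gene, 148, 149 and 216 with vehicle and 1582, 1893 and 1416 with doxycycline. E2F1 and CCNE2, which drive entry into S phase, fell firmly (-1.87/-2.62; -1.57/-2.29). CDK2, CDK6 and CCND3 were lower on the expressed-gene scale alone (-1.06/-1.81; -1.19/-1.94; -1.06/-1.81).

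None of 49 cytosolic ribosomal protein genes rose or fell: limma called 0 on the deposited scale, with 2 at an unadjusted p under 0.05, edgeR 1 and DESeq2 2, all higher, and on the expressed-gene scale limma called 2 lower, RPS21 and RPS25 (0.15/-0.60; 0.021/-0.73). Of 39 genes of ribosome assembly 25 were lower on the expressed-gene scale, 21 to 25 with 1 library left out, and 35 were lower with the drug in the EV line on that scale and 39 on the deposited scale. BOP1 had the 1 firm fall (-1.50/-2.21). Of 40 mitochondrial ribosomal proteins none had a firm call.

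Survival and death genes rose side by side. Of 27 genes of the BCL2 family and death receptors 7 rose firmly and 0 fell firmly. BCL2A1, which blocks death, read 17.4, 25.7 and 34.8 with vehicle and 1439, 3332 and 3079 with doxycycline. BCL2L1, which encodes BCL-XL and does the same, read 107, 148 and 182 with vehicle and 2045, 2921 and 2066 with doxycycline. BBC3 (PUMA), which triggers it, read 69.4, 89.2 and 72.5 with vehicle and 488, 639 and 469.7 with doxycycline. The TRAIL receptors TNFRSF10A and TNFRSF10B rose by 1.69/0.95 and 2.06/1.31. BCL2 was lower on the expressed-gene scale alone (-0.79/-1.54).

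Transcription factors of several families rose. TFEB shares its E-box with other helix-loop-helix factors, and of 28 of these 9 rose firmly and 0 fell firmly. BHLHE41 and BHLHE40 are repressors that bind the same letters. BHLHE41 read 30.1, 23.3 and 34.8 with vehicle and 4019.6, 5933 and 3984 with doxycycline, and BHLHE40 read 244, 392 and 454 with vehicle and 9314, 15264 and 10121 with doxycycline. USF2 read 805, 1408 and 1189 with vehicle and 13606, 17484 and 11499.5 with doxycycline. MAX, the partner of MYC, and MXD1, which competes with MYC for MAX, rose (1.91/1.16; 2.33/1.58), as did HIF1A and AHR (3.32/2.57; 2.91/2.16).

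Of 29 immediate early genes 19 rose firmly and 0 fell firmly. EGR1, a zinc finger factor of growth factor signalling and monocyte maturation, read 40.2, 24.9 and 59.6 with vehicle and 8938, 14279 and 8759 with doxycycline and EGR2 32, 41 and 34.8 with vehicle and 1409, 2433 and 1546 with doxycycline. The AP-1 genes FOS, FOSB, FOSL1, JUN and JUNB changed by 3.63/2.88, 3.16/2.41, 3.14/2.39, 2.48/1.73 and 2.21/1.46. MAFF, a small MAF factor that pairs with NRF2, read 31, 28.9 and 39.7 with vehicle and 1029, 1452 and 1016 with doxycycline. The groups did not overlap in EGR1, EGR2, FOS, JUN or MAFF. Of the others DUSP6, NR4A2 and KLF2 were lower on the expressed-gene scale alone (-0.013/-0.76; -0.41/-1.14; -0.79/-1.52).

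Among 17 NF-kB genes 5 rose firmly and 0 fell firmly. IER3, an early response gene, read 23.7, 4.02 and 17.9 with vehicle and 1403, 4554 and 3223 with doxycycline, and RELB and NFKB2, the pair of the non-canonical branch, changed by 4.08/3.33 and 2.38/1.63. The inhibitor TNFAIP3 (A20) rose by 1.62/0.87.

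Secreted signals rose widely. Of 28 chemokines and cytokines 17 rose firmly and 0 fell firmly. IL8, which draws neutrophils, read 62.1, 38.6 and 137 with vehicle and 4399, 25278 and 23203 with doxycycline, CCL3, which draws monocytes, 20.1, 16.1 and 49.7 with vehicle and 2506, 7841 and 6352 with doxycycline, and CXCL16 33.8, 27.3 and 50.7 with vehicle and 6803, 9046 and 5871 with doxycycline. The neighbouring copy CCL3L1 rose as well (8.25/7.55); CCL3 and CCL3L1 are near-identical, so reads could be shared between them. IL10, an inhibitor of inflammation, read 27.4, 9.64 and 22.8 with vehicle and 2444, 3503 and 3213 with doxycycline. CSF1, the growth factor of macrophages, VEGFA, that of blood vessels, and TGFB1 changed by 5.08/4.33, 3.55/2.80 and 2.83/2.08. TNF and IL18 were lower on the expressed-gene scale alone (-0.33/-1.06; -0.33/-1.08), so members of the list differed in direction on that scale.

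Myeloid identity genes moved in both directions. Of 15 tested azurophil granule proteins 1 rose firmly and 8 fell firmly: PRTN3, MPO, LYZ, AZU1, RNASE2, RNASE3, MS4A3 and PRSS57 fell and the cystatin CST7 rose (2.51/1.75). AZU1 read 739, 1341 and 1188 with vehicle and 201, 203 and 179 with doxycycline. ELANE, neutrophil elastase, which lies next to PRTN3 and AZU1 in the genome, was not called (-0.00021/-0.75; 1579.8, 3575 and 2478 with vehicle and 2932, 2624 and 1819 with doxycycline). CTSG and the proteoglycan SRGN, which packs granule contents, were lower on the expressed-gene scale alone (-0.85/-1.60; -0.78/-1.53). With the drug in the EV line 10 of 15 were called lower on the expressed-gene scale and 13 on the deposited scale. The interaction was lower for 11 and higher for 2 on the expressed-gene scale. From the deposited values limma called 3 higher and 0 lower, the lower ones numbering 0 at an unadjusted p under 0.05, 3 by edgeR and 1 by DESeq2. Of 22 tested genes of specific granules and mature neutrophils 0 rose firmly and 3 fell firmly: MNDA, CXCR2 and CEACAM6 (-2.13/-2.87; -1.35/-2.09; -1.19/-1.91). Most of this list lay near background, since 2 of the 22 were expressed nuclear genes.

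Of 36 receptors of monocytes and macrophages 9 rose firmly and 2 fell firmly. The scavenger receptor MARCO read 40.2, 25.7 and 39.7 with vehicle and 7192, 10795 and 7765 with doxycycline and galectin 3 (LGALS3) 17.4, 22.5 and 23.8 with vehicle and 852, 823 and 682 with doxycycline. The chemokine receptor CCR1, the Fc receptor chain FCER1G, CHI3L1, TREM1, CD163 and the lipoprotein receptor SCARB1 rose (4.14/3.39; 3.34/2.60; 3.57/2.82; 2.91/2.17; 2.99/2.24; 3.0/2.25). CSF1R, the receptor for the induced CSF1, fell, with 189.9, 274 and 265 with vehicle and 79.6, 60.3 and 50.1 with doxycycline, as did FCGR1A, a high-affinity Fc receptor, (-1.43/-2.17).

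Of 25 integrin and adhesion genes 3 rose firmly and 2 fell firmly. ITGAX (CD11c), of macrophages and dendritic cells, read 128, 91.6 and 104 with vehicle and 7397, 13502 and 9735 with doxycycline, the ligand ICAM1 61.2, 41.8 and 44.7 with vehicle and 994, 1739.8 and 1265 with doxycycline, and the laminin receptor chain ITGA6 rose by 3.73/2.99. ITGA4 and ITGB7, the chains of 1 homing integrin, fell, ITGA4 with 341, 619 and 831 with vehicle and 113, 199 and 124 with doxycycline and ITGB7 with log2 changes of -1.90/-2.63. Of 14 SRC kinases and their adaptors 4 rose firmly and 0 fell firmly, with FGR at 185, 156 and 125 with vehicle and 2179.5, 2707 and 2126 with doxycycline and SRC at 3.35/2.60. SYK was lower on the expressed-gene scale alone (-1.29/-2.04). Of the 8 oxidase genes 2 rose firmly and 0 fell firmly, among the former NCF4 (p40phox) with 743, 909 and 1166 with vehicle and 4047, 6192 and 4387 with doxycycline (2.37/1.62). CYBB, the catalytic subunit, changed by -1.40/-2.15, and its deposited-scale call ended without vehicle library 2 or 3 or any 1 of the induced libraries, with limma adjusted p from 0.0885 to 0.125.

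Of 18 tested myeloid transcription factors 4 rose firmly and 3 fell firmly. GATA2 of stem cells and mast cells read 383, 621 and 554 with vehicle and 5900.5, 7334 and 4627 with doxycycline and CEBPB of monocytes 254, 348 and 262 with vehicle and 2249, 2833 and 1920.2 with doxycycline. RARA, the retinoic acid receptor, and KLF4 rose by 2.24/1.49 and 2.08/1.33. CEBPE, which drives granule genes, read 133, 233 and 204 with vehicle and 34.6, 42 and 61.2 with doxycycline and IRF8, of monocytes and dendritic cells, 334, 679 and 618 with vehicle and 115, 192 and 141 with doxycycline. With NFE2 these were the firm falls. Falls on both scales numbered 8, but 3 without vehicle library 2 and 4 without vehicle library 3 or induced library 1 or 3. SPI1 (PU.1), CEBPA and KLF6 show that not all myeloid regulators moved alike: SPI1 changed by 0.47/-0.28 and CEBPA by 0.86/0.13, with limma adjusted p of 0.605 and 0.171 on the deposited scale, while KLF6 rose by 4.17/3.42.

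Among 20 progenitor and leukaemia genes 2 rose firmly and 3 fell firmly. Beside MYB, the receptor kinase FLT3 read 426, 844 and 794 with vehicle and 163, 164 and 157 with doxycycline and WT1 210, 443 and 448 with vehicle and 60.8, 112 and 72.2 with doxycycline. BCL11A, a repressor of blood cell lineages, went up, with 605, 1195 and 1172 with vehicle and 4004, 6507 and 4739 with doxycycline, and the pseudokinase TRIB2 rose by 1.77/1.02.

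Of 21 genes of antigen presentation 7 rose firmly and 0 fell firmly. The class I chain HLA-B read 3389.8, 6659.7 and 6695 with vehicle and 23455, 43159 and 32321 with doxycycline, and HLA-B, HLA-C and the peptide pump subunit TAP2 rose by 2.59/1.83, 2.53/1.77 and 2.18/1.43. HLA genes are near-identical in places, and the line's alleles can differ from the reference, so their values are uncertain. HLA-DMB and HLA-DMA of the class II path rose (3.90/3.16; 2.03/1.29), while the class II genes HLA-DRA and CD74 were lower on the expressed-gene scale alone (-0.91/-1.61; -0.93/-1.68). Rises in this list numbered 11, and 7 without vehicle library 1 or induced library 2.

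Of 33 interferon-stimulated genes 7 rose firmly and 0 fell firmly, led by ISG20, IFI6 and IFIT3 (3.33/2.58; 3.22/2.48; 2.71/1.97). With the drug in the EV line 26 of 33 were called higher on the expressed-gene scale, and 11 higher and 1 lower on the deposited scale. Over all 23128 tested genes 10204 were called higher there on the former scale and 783 (3.39%) on the latter. The interaction turned with the scale, higher for 1 and lower for 21 on the expressed-gene scale and higher for 9 and lower for 2 on the deposited scale. Of the 33, 6 were expressed nuclear genes, and genes near background as a block were lower in the interaction on the expressed-gene scale.

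**Figure D5:**
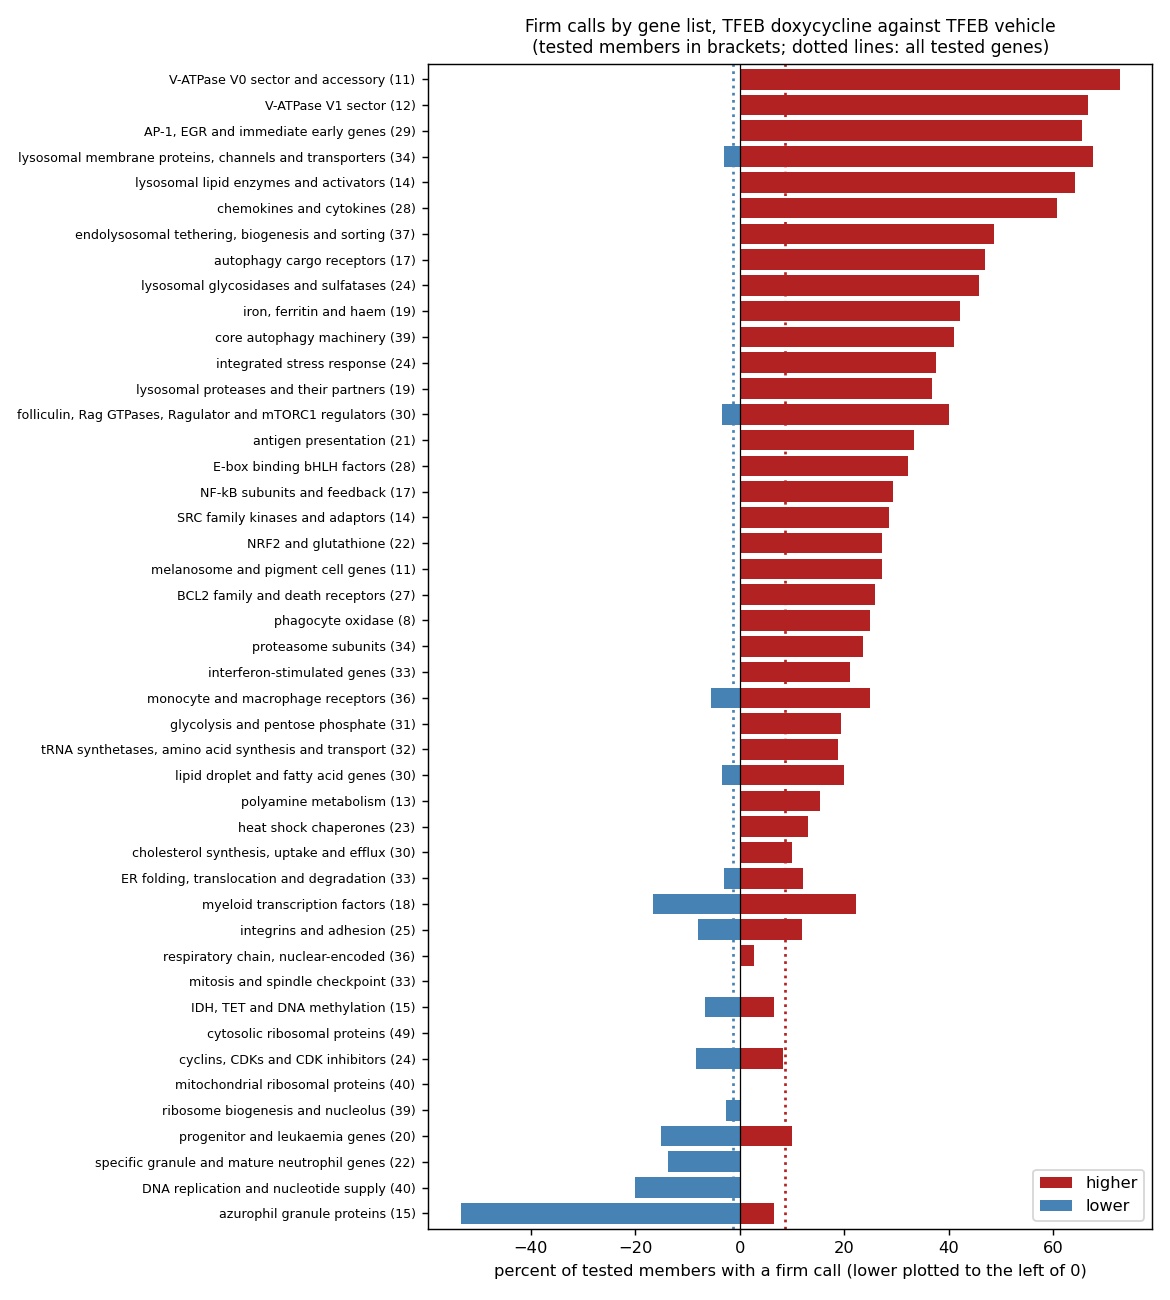
Percent of the tested members of 45 gene lists with a firm rise (red, right of 0) or a firm fall (blue, left of 0) in TFEB doxycycline against TFEB vehicle, with the number of tested members in brackets and dotted lines at 8.70% and 1.30%, the shares of all 23128 tested genes. Lists of the proton pump, lysosomal membrane, lipid enzymes, immediate early genes and cytokines stand at the top, and azurophil granule and DNA replication genes at the bottom.

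Markers of other cells were read beside these changes. Firm rises among the 14 lymphoid markers were those of CD22, TRAC and NKG7, with CD22, a lectin of B cells, at 51.1, 34.5 and 57.6 with vehicle and 7641, 13724 and 9677 with doxycycline, and none fell firmly. CD3D, a defining chain of the T cell receptor complex, read 19.2, 13.7 and 7.95 with vehicle and 9.43, 7.53 and 1.22 with doxycycline, and the B cell chain CD79A 18.3, 53 and 47.7 with vehicle and 18.9, 17.2 and 13.5 with doxycycline, at or near background in both groups. Of nuclear reads the whole list, with CD22 its largest member when induced, took 0.00519% to 0.0088% with vehicle and 0.0718% to 0.0864% with doxycycline. Of 5 tested erythroid, 10 tested fibroblast and endothelial and 8 tested epithelial and kidney markers THY1 alone had a firm call, a rise of 2.88/2.14 from a low level; the 3 lists took 0.00395% to 0.00698% with vehicle and 0.00184% to 0.0022% with doxycycline, 0.00565% to 0.012% with vehicle and 0.00344% to 0.00489% with doxycycline and 0.00222% to 0.00466% with vehicle and 0.00127% to 0.00173% with doxycycline. Of 11 tested pigment cell genes, a family under the TFEB relative MITF, GPNMB, the channel TRPM1 (93.1, 69.9 and 82.4 with vehicle and 4363, 5239.8 and 3897 with doxycycline) and RAB32 (4.06/3.31) rose firmly. Mitochondrial reads took a smaller share in all 3 induced libraries, beside every rise named here, and their part in the rises was not tested.

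By gene type, of 17087 protein-coding genes 2674 (15.6%) rose and 760 (4.45%) fell. Of 1996 lincRNAs 126 (6.31%) rose and 89 (4.46%) fell, and of 1668 antisense genes 85 (5.1%) rose and 92 (5.52%) fell; whether counting used strand is not stated in these sources, and the latter cannot be told from their partners. The lists named here leave out most of the response, since 2633 of the 3017 genes that rose and 965 of the 1041 that fell are in none of them.

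Whether the response to doxycycline differed between the lines was tested by the interaction of vector and drug. On the deposited scale the median expressed gene changed by 0.73 in the TFEB line and by -1.29 in the EV line. Deposited library totals differed in the same directions. They averaged 18181800 with doxycycline and 10177500 with vehicle in the TFEB line, and 7097590 and 15335000 in the EV line. The part of these totals in the shifts and in the deposited-scale interaction was not tested. The interaction was called higher in the TFEB line for 6755 genes (29.2%) and lower for 1422 (6.15%) on the deposited scale, and for 2533 (11.0%) and 13377 (57.8%) on the expressed-gene scale. The deposited-scale counts were 5354 higher and 5590 lower after TMM scaling, 1938 and 15451 with equal nuclear totals, and 1610 and 16320 with equal upper quartiles. The 1422 became 610 without vehicle library 1, 803 without induced library 2, 815 without EV vehicle library 2 and 896 without EV doxycycline library 2. The 13377 includes genes near background as a block, since their level relative to expressed genes went up in the EV doxycycline libraries. Among expressed nuclear genes alone the interaction was called higher for 2266 (31.1%) and lower for 2183 (29.9%) on the expressed-gene scale. Of the 3017 rises 2049 had an interaction in the same direction on both scales, and of the 1041 falls 268. The interaction contains the change within the TFEB line, so the 2 calls are not independent. For firm calls these counts were 1510 of 2013 and 43 of 301. In 2418 of the genes that rose all 3 induced libraries lay above all 9 others on the deposited scale, and in 370 of those that fell they lay below.

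Some genes called with induction were also called with the drug in the EV line, and how many depends on the scale. Of the 2511 expressed nuclear genes called higher with induction on the expressed-gene scale, 807 were called higher in the EV line and 296 lower, and of the 2423 called lower, 647 were lower there and 290 higher. Over all 7290 such genes 1521 were called higher and 1274 lower in the EV line on that scale. From the deposited values, of the 4032 genes higher with induction 110 were called higher in the EV line and 1050 lower, and of the 1077 lower genes 440 were lower there and 21 higher. Over all 23128 tested genes 783 were called higher and 5396 lower in the EV line on the deposited scale.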

How the data were processed

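RNA-seq libraries of 12 HL60 cultures, 4 groups of 3, were compared. Reads were aligned with STAR 2.5.3a and counted with HTSeq 0.6.1, per the submitters' processing notes; no genome build, annotation or strand setting is named in those notes or the labels. The authors deposited 1 table of 57820 genes whose signal values are reads divided by 1 factor per library. The values of all 12 columns were whole multiples of 1 step per column, within 0.01 of a whole number, which gives whole reads back; in 2 of them (the second EV vehicle and the third TFEB vehicle culture) the step lies within 1% of 1. Recovered totals gave the depth.

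Genes averaging 10 or more over the 12 columns were tested with limma 3.58.1 in R 4.3.3 on log2(value + 1), with 1 mean per group, a variance trend and Benjamini-Hochberg adjustment over 23128 genes at 0.05, on the deposited values and after dividing each library by its median ratio over 7290 nuclear genes averaging 200 or more. The difference between the 2 lines' responses was an interaction term in the same model. In the TFEB line same-numbered vehicle and doxycycline cultures varied together in 2 of 3 pairs. In the EV line such pairs correlated by 0.22, 0.41 and 0.72. The labels name no shared batch, so numbers were not used as pairs in the main fit. A replicate block was fitted as an alternative. Recovered reads were also tested with edgeR 4.0.16 and DESeq2 1.42.0, and scaling, pseudocount, filter and left-out libraries were varied. Code was tested on simulated data. Tables and figures were made with Python 3.11.15, pandas 2.3.3, numpy 2.4.6 and matplotlib 3.10.9.

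The comparison and the gene lists were chosen with earlier results of these data known. Genes named were TFEB, the 14 largest rises and falls that held with each library left out, the 8 with the most reads in each direction, up to 5 called members a list in each direction and every member of lists of 14 or fewer; further list members were singled out after their values were seen, and some members are not reported here.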

Additional observations from a re-analysis of the deposited data

Results flagged for a closer look

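Genes whose response to doxycycline went opposite ways in the 2 lines were looked for on both scales. Of 23128 tested genes, 236 were higher with doxycycline in the TFEB line and lower with it in the EV line, and 17 the reverse. Each was called by limma in both lines and on both scales, and an interaction called on both scales was also required. In the EV line 783 genes were called higher and 5396 lower on the deposited scale. On the expressed-gene scale 10204 were higher and 1330 lower there. Among the named genes with firm calls, 19 were of the first kind, and their interactions on the expressed-gene scale follow. The log2 interaction was 2.28 for SARS, 2.96 for WARS, 3.44 for GARS, 3.45 for TRIB3 and 4.16 for DDIT3, and 2.40 for the glutamine carrier SLC38A1. Glucose use was represented by SLC2A1 at 2.37 and HK2 at 3.49. The proteasome subunits PSMB7 and PSMA7 had 2.44 and 3.87, the mitochondrial chaperone HSPA9 2.37, and the complex II subunit SDHB 2.84. The cyclase LSS had 3.60 and the small GTPase RAB32 3.85. Among regulators and immune genes the values were 1.52 for NFKBIB, 2.63 for BCL11A, 3.47 for GATA2, 3.19 for CST7 and 4.55 for TRAC.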

How the results depend on the processing

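With libraries brought to equal nuclear totals, 2632 genes were higher and 9314 lower with induction, and with equal upper quartiles 2397 and 9504; the interaction then had 1938 higher and 15451 lower, and 1610 and 16320. On the deposited scale the 1077 lower genes became 2133 with TMM, 2196 with edgeR, 1803 with the TFEB line alone and 647 with a mean of at least 50. They ranged from 608 to 1488 with 1 library left out, and the higher from 2782 to 4895. On the expressed-gene scale a minimum fold of 2 left 2205 higher, and the TFEB line alone gave 7863 lower. The interaction's 1422 lower genes on the deposited scale became 5590 with TMM, 5641 with edgeR, 3297 with DESeq2, 220 with a mean of at least 50, 826 with no filter and 910 with no trend, and ranged from 610 to 2070 with 1 library left out. On the expressed-gene scale the interaction gave 1620 higher with the scale set by genes of at least 1000 and 5062 lower with a mean of at least 50. The cause of these shifts was not tested. In the 100 bases before the start, a shorter window, CACGTG stood in 7.40% of genes that rose, 2.77% that fell and 4.26% tested. TCACGTGA stood there in 2.34% that rose and 0.862% tested. Of expressed nuclear genes 5.659% held CACGTG and 1.415% TCACGTGA in that window. Under equal upper quartiles RRN3 and BTG2 turned to -0.053 and -0.061. Same-numbered vehicle and doxycycline libraries of the TFEB line correlated by 0.31, -0.22 and 0.50; a replicate block gave 4472 higher and 1352 lower, with 4031 and 1072 shared, and changed no called named gene. Same-numbered EV libraries correlated by 0.22, 0.41 and 0.72, and vehicle libraries of the 2 lines by 0.45, 0.62 and 0.49; with the block the interaction had 7432 higher and 1744 lower on the deposited scale and 2780 and 13932 on the expressed-gene scale. edgeR shared 3718 higher and 993 lower calls with limma, and DESeq2 3872 and 990, with 0 opposite.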
